A study of Mus musculus with 12 samples.

Results

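The Fos and Jun family is the set of 7 genes Fos, Fosb, Fosl1, Fosl2, Jun, Junb and Jund, taken by gene symbol from a table of 55421 genes counted in mouse liver. Each symbol occurred once, and 6 of the 7 passed the low-count filter that left 15006 genes to test. Fosl1 was the exception. The livers came from wild-type (WT) mice that all carried tumours of E0771, a mouse mammary carcinoma line placed in the mammary fat pad, and were collected on day 21. After 1 week of acclimatisation the housing temperature was 6 °C for libraries 1 to 4, 22 °C for libraries 5 to 8 and 29 °C for libraries 9 to 12, and no group here is free of tumour. The labels name both Balb/C and C57Bl6/J hosts without assigning libraries to them, give no age or sex, and do not state that each library is a separate animal, so p-values measure the spread between libraries.

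Fos and Jun proteins are the subunits of AP-1, a transcription factor that binds DNA as a dimer through a basic region and a leucine zipper. Jun proteins pair with each other or with Fos proteins, whereas Fos proteins need a Jun partner. Fos, Fosb, Jun and Junb are immediate early genes, transcribed within minutes of growth factor, cytokine or stress signals and silenced soon after, while Jund is known for steadier expression. In liver, Jun is needed for hepatocyte survival in development and for regeneration after partial hepatectomy, which also induces Fos and Jun. Fosl1 (Fra-1) and Fosl2 (Fra-2) are Fos proteins without the strong activation domain of Fos and are typically made later.

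The sequence around the start of transcription is shown for Jun and Fos, the family's prototypes. Any part of its motifs in the levels of the members was not tested. Both windows are RefSeq sequences of GRCm38.p6 with 250 bases before and 50 after the start, and capitals mark matches to the motifs searched. The Jun window lies at chr4:95052173-95052472 on the minus strand and the Fos window at chr12:85473640-85473939 on the plus strand.
Jun: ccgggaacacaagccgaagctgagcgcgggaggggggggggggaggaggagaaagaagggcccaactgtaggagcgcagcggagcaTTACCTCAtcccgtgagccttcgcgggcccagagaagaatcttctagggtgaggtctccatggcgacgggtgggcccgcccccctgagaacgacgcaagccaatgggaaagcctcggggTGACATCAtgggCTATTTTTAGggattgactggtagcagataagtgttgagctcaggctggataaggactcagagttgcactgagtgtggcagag
Fos: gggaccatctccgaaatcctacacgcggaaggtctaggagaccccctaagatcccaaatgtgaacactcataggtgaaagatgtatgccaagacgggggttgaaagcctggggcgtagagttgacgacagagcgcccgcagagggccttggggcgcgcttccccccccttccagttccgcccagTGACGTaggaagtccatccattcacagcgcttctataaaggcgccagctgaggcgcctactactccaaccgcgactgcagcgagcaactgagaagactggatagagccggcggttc
In Jun, TTACCTCA (-164 to -157 from the start) and TGACATCA (-45 to -38) are the variant AP-1 sites through which Jun is known to act on its own promoter, and the capitals from -33 to -24 have the letters of a site for MEF2 factors. In Fos, TGACGT (-66 to -61) is part of the letters of a cAMP response element. Of 32851 promoter windows of the same length, 0.889% held TTACCTCA, 3.62% TGACATCA, 0.110% the letters of the MEF2 site and 7.51% TGACGT on either strand. The AP-1 consensus TGACTCA (in 5.20% of windows), the full element TGACGTCA (1.79%, which contains TGACGT) and the CArG box of serum response factor (1.63%) matched none of the 6 member windows, and Fosl1 had no window. Sequence more than 250 bases before the start was not searched. Sites farther upstream, a CArG box of Fos included, would therefore be missed. The windows of Fosb, Fosl2, Junb and Jund held none of the motifs searched. Those of Jund and Fosl2 start 1210 and 671 bases from the GENCODE start, so other promoters of these genes were not searched.

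Early-gene mRNAs are known for AU-rich elements in the 3' UTR, which bind decay factors such as Zfp36. Fos held 4 ATTTA pentamers in 815 bases of 3' UTR, or 4.91 per kb, and 8.32% of 19040 coding transcripts were at least as dense. Junb followed with 4.12 and Jun with 3.24 per kb, while Jund had 1.88, Fosl2 1.72, Fosl1 1.57 and Fosb 0.466 per kb, against a median of 1.01 over all. The longer element TTATTTATT was found in Fos and Fosl2 alone among the members, and in 6.31% of all coding transcripts. It is shown in capitals within 30 bases on the plus strand, at chr12:85477103-85477132 for Fos and chr5:32156871-32156900 for Fosl2.
Fos: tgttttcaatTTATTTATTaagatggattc
Fosl2: atttattttaTTATTTATTttaaatgttta

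Total counts were 7615585 to 19001126 per library, and a floor of 3 counts corresponded to 0.151 to 0.399 CPM, for counting error alone. Levels are CPM (counts scaled to a common library size) on TMM-adjusted library sizes. Libraries 1, 7, 8 and 9 stood apart from the other 8: they transcribed H2-Ea-ps, a class II gene silent in C57BL/6 mice, at 11.8 to 17.1 CPM against 0 counts, and lay together on the first principal component (39.0% of variance). Results are also given with a term for this split, set from the data and not from the labels. Libraries 1, 7, 8 and 9 also held the most mitochondrial ribosomal RNA, at 2.27%, 0.774%, 0.662% and 0.843% of counts. The others held 0.0668% to 0.342%, and the part of this RNA in the results was not tested. Hepatocyte markers (9 of 10 found) summed to 79662 to 197472 CPM. Intestinal markers summed to 741 CPM in library 11 and to at most 23.4 CPM elsewhere.

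Jun and Fosl2 rose at 29 °C relative to 6 °C, and the other 4 tested members did not pass. Thus 2 of 6 tested members were called higher at an adjusted p under 0.05, where 2.53% of all genes were called and 1.13% were called higher (edgeR quasi-likelihood). The calls over all genes split into 170 higher and 209 lower, and into 213 and 135 with library sizes taken without mitochondrial and abundant genes, under which both members stayed called. DESeq2 and limma voom each called 4 members higher (Fosb, Fosl2, Jun and Junb), where they called 3.95% and 3.39% of genes higher. Fold changes of all 6 were positive, as were 50.1% of all genes, with a median log2 fold change of 1.42 against 0.00054 over all genes. The samples are bulk tissue, so fewer cells of a type and less RNA per cell cannot be told apart.

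**Figure D1:**
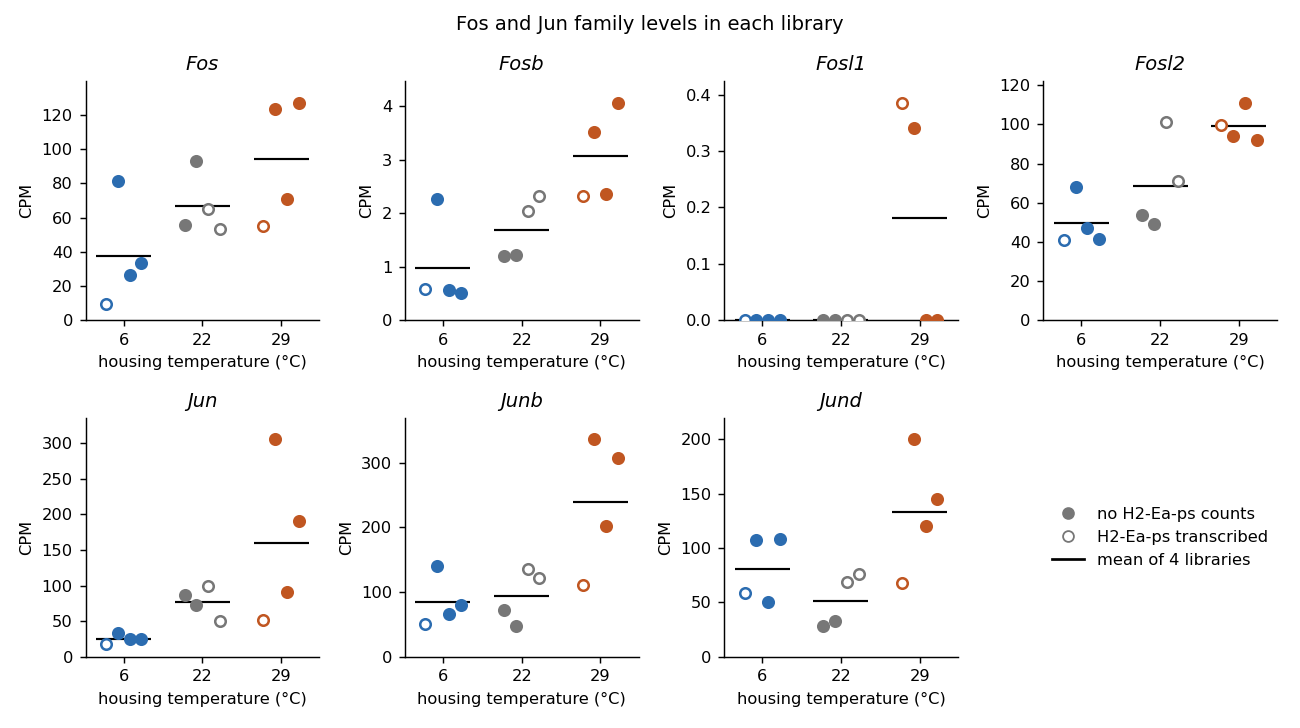
Level of each member in CPM (vertical axes, linear, from 0) in each of 12 libraries at 6, 22 and 29 °C, with open symbols for libraries that transcribe H2-Ea-ps and a bar at the mean of 4. Jun is between 18.4 and 33.6 CPM in all 6 °C libraries and above 50 CPM in the other 8, and Fosl1 is above 0 in libraries 9 and 10 only.

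Jun, the prototype of its branch, is a gene of 1 exon (ENSMUSG00000052684.4) on the minus strand of chromosome 4, 95049034 to 95052222 in GRCm38, the build of all positions here. It stood at 18.4, 33.6, 24.5 and 24.4 CPM in libraries 1 to 4 (6 °C), at 86.1, 72.0, 100.1 and 50.5 CPM in libraries 5 to 8 (22 °C), and at 51.8, 305.1, 90.9 and 190.9 CPM in libraries 9 to 12 (29 °C). Every 29 °C and every 22 °C library lay above every 6 °C library, whereas 22 °C and 29 °C overlapped. Library 10 was the highest of all and library 9 the lowest at 29 °C. From 25.2 ± 6.30 CPM at 6 °C to 160 ± 113 CPM at 29 °C (SD, n = 4 each) the log2 fold change was 2.67 (SE 0.48, edgeR adjusted p = 0.0227, 0.00728 with the split term), and 0.193% of all genes had a larger one. The call was lost without library 3 (adjusted p = 0.0676), 4 (0.0730) or 10 (0.0530), while the fold change stayed between 2.15 and 2.96 with any 1 library left out. Jun overlaps the antisense RNA Junos over 232 exonic bases. Since the use of strand in counting is not known, reads there cannot be told apart, and Junos itself had 6 to 39 counts against 253 to 5365 for Jun.

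Fosl2, which encodes Fra-2, lies on chromosome 5 from 32135801 to 32157842 on the plus strand (ENSMUSG00000029135.10). Its levels were 41.2, 68.1, 47.0 and 41.7 CPM at 6 °C, 53.8, 49.0, 101.0 and 71.2 CPM at 22 °C, and 99.9, 94.1, 111 and 91.9 CPM at 29 °C, in library order. The 29 °C libraries spanned the narrowest relative range of any tested member at any temperature (SD 8.66% of the mean), and all lay above all 6 °C libraries. At 22 °C, libraries 7 and 8, which transcribe H2-Ea-ps, were above libraries 5 and 6. From 49.5 ± 12.7 to 99.2 ± 8.60 CPM the log2 fold change was 1.01 (SE 0.22, edgeR adjusted p = 0.0352, 0.00692 with the split term). The fold change lay between 0.93 and 1.19 with any 1 library left out, but the call was lost without library 1 (adjusted p = 0.0631), 3 (0.0980), 4 (0.105), 9 (0.0599), 10 (0.0928), 11 (0.0920) or 12 (0.0620).

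Fos, the prototype of the other branch, lies on chromosome 12 (85473890 to 85477273, plus strand). It stood at 9.15, 81.5, 26.6 and 33.4 CPM at 6 °C, 55.7, 93.1, 65.3 and 53.4 CPM at 22 °C, and 54.9, 123.7, 71.1 and 127 CPM at 29 °C. Library 2 at 6 °C exceeded libraries 9 and 11 at 29 °C, so the groups overlapped. The log2 fold change at 29 °C against 6 °C was 1.33 (SE 0.53, edgeR adjusted p = 0.199, 0.0738 with the split term). Without library 2 it was 2.02 with an adjusted p of 0.0499, and under the other alternatives the p lay up to 0.397.

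Fosb (chromosome 7, 19302696 to 19310051, minus strand), an early gene best known from the brain, was low throughout, with 6 to 62 counts per library. It stood at 0.576, 2.26, 0.556 and 0.502 CPM at 6 °C, 1.1997, 1.22, 2.04 and 2.31 CPM at 22 °C, and 2.32, 3.53, 2.36 and 4.07 CPM at 29 °C. All 29 °C libraries were above all 6 °C libraries, though library 2 at 6 °C (2.26 CPM) came close to library 9 (2.32 CPM). The log2 fold change of 1.72 (SE 0.49) did not pass (edgeR adjusted p = 0.0783), and it passed with the split term (1.76, adjusted p = 0.0252, where 6.32% of genes were called higher) and without library 2 (2.46, adjusted p = 0.0216). Groups without overlap were thus seen for Fosb, Fosl2 and Jun, 3 of 6 tested members, where 6.56% of all genes had 29 °C above 6 °C without overlap.

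Junb, a Jun protein that can restrain Jun, lies on chromosome 8 (84974484 to 84978718, minus strand). It stood at 50.6, 140.8, 66.4 and 79.5 CPM at 6 °C, 73.1, 48.4, 136 and 121 CPM at 22 °C, and 111, 336, 202 and 307 CPM at 29 °C. Libraries 10 to 12 exceeded every other library, while library 9 fell below library 2 at 6 °C. The log2 fold change at 29 °C against 6 °C was 1.504 (SE 0.42, edgeR adjusted p = 0.0796, 0.0670 with the split term, and 0.0295 in the 8 libraries without H2-Ea-ps, where 4.93% of genes were called higher). Junb shares 173 exonic bases with Prdx2 on the opposite strand, which had 358 to 997 counts against 475 to 5910 for Junb.

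Jund (chromosome 8, 70698949 to 70700616, plus strand, 1 exon) had its lowest mean at 22 °C, whereas the other tested members had theirs at 6 °C. Its levels were 58.4, 107.3, 50.6 and 108.5 CPM at 6 °C, 28.5, 32.9, 69.2 and 75.9 CPM at 22 °C, and 67.7, 199.99, 120.4 and 145 CPM at 29 °C. Libraries 5 and 6 at 22 °C were the lowest of the 12 for Jund, and library 6 was also the lowest for Junb (48.4 CPM). Libraries 5 and 6 also held the least of the ribosomal-RNA-related transcript Gm26917 (0.667% and 0.605% of counts, with 1.66% in library 3 and 4.03% to 8.70% in the other 9), whose part in the result was not tested. The log2 fold change of Jund was 0.72 for 29 °C against 6 °C (SE 0.40, edgeR adjusted p = 0.353). Jund shares 877 exonic bases with the antisense gene Gm11175 (6 to 42 counts against 309 to 3517 for Jund).

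Fosl1, which encodes Fra-1, had 5 counts in library 9 (0.386 CPM) and 6 in library 10 (0.341 CPM), both at 29 °C, and 0 counts in the other 10 libraries. A count of 0 allows up to 0.216 to 0.399 CPM at 6 °C and 0.192 to 0.306 CPM at 22 °C. The difference between 29 °C and 6 °C did not pass (p = 0.429, two-sided exact permutation test on log2(CPM + 1), n = 4 each). Without ties, the smallest p that 70 assignments allow is 0.0286. With 0 counts in every other library compared, no placing of libraries 9 and 10 gives a p below 0.429. The test could therefore not pass and decides nothing. Fosl1 (chromosome 19, 5447547 to 5455946, plus strand) shares 1163 of its 2033 exonic bases with Ccdc85b on the opposite strand, which had 13 to 105 counts, so even these few reads are not assigned with certainty.

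**Figure D2:**
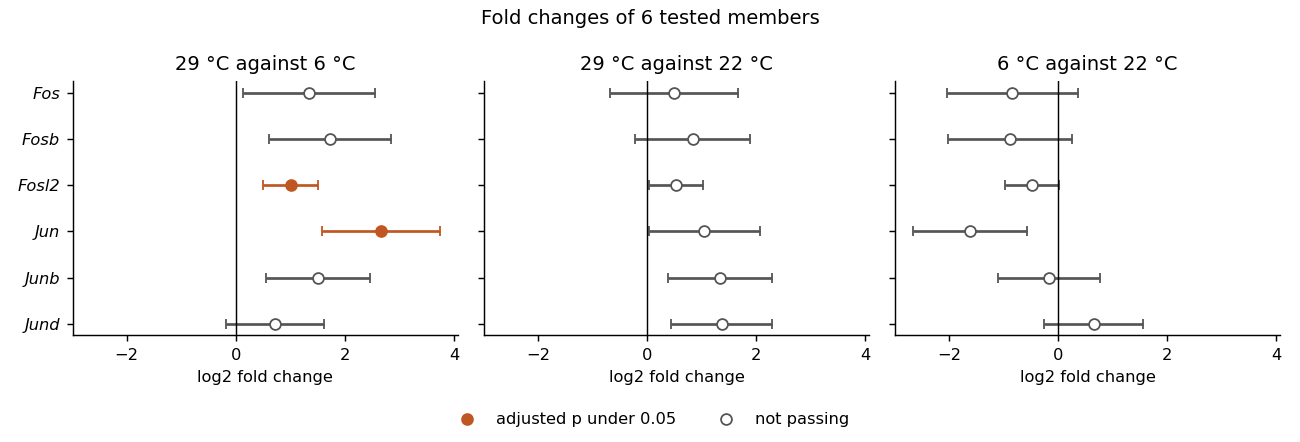
Log2 fold change (horizontal axes) of 6 tested members in the 3 comparisons, with bars for approximate 95% intervals from the SE and 9 residual degrees of freedom and filled symbols for adjusted p under 0.05. Jun (2.67) and Fosl2 (1.01) at 29 °C against 6 °C are the filled symbols.

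At 29 °C relative to 22 °C, the members with the largest fold changes were Jund and Junb, and 0 of 6 passed. In this comparison edgeR called 0% of all genes, with 2241 at an unadjusted p under 0.05, whereas DESeq2 called 329 and limma voom 43. All 6 fold changes were positive, as were 49.6% over all genes. The mean of Jund was 133 ± 55.0 CPM at 29 °C and 51.6 ± 24.4 CPM at 22 °C (a log2 fold change of 1.37, SE 0.41, with an edgeR adjusted p of 0.200) and that of Junb 239 ± 103 and 94.7 ± 40.9 CPM (1.33, SE 0.42, adjusted p = 0.217). DESeq2 called these 2 members (adjusted p = 0.0239 and 0.0339), where it called 1.27% of genes higher. In the 8 libraries without H2-Ea-ps, Jund (2.33, adjusted p = 0.00785), Junb (2.21, 0.0119) and Fosl2 (0.94, 0.00724) passed, where 9.35% of genes were called higher and libraries 5 and 6 alone stood for 22 °C. With the split term the p-values of Jund and Junb were 0.148 and 0.198. Jun had a log2 fold change of 1.05 (edgeR adjusted p = 0.313), which fell to 0.53 without library 10 (adjusted p = 0.679). The log2 fold changes of Fosb, Fosl2 and Fos were 0.84, 0.53 and 0.50. The groups of Fosb did not overlap, by 2.3151 against 2.3145 CPM at the nearest libraries 9 and 8, a gap far under 1 count, and 3.89% of all genes had 29 °C above 22 °C without overlap.

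At 6 °C relative to 22 °C, Jun had the largest difference of the family, and 0 of 6 members passed, where edgeR called 0.0333% of all genes (5, with 1787 at an unadjusted p under 0.05, and 178 by DESeq2). Jun stood at 25.2 ± 6.30 against 77.2 ± 21.2 CPM, with no overlap between the groups, as in 2.81% of all genes in that direction. Its log2 fold change was -1.62 (SE 0.46, edgeR adjusted p = 0.264, and 0.130 with the split term), and of the alternatives run only DESeq2 called it (adjusted p = 0.0185, where 0.347% of genes were called lower). Fosb (-0.88), Fos (-0.84), Fosl2 (-0.48) and Junb (-0.17) were also negative, and Jund was positive at 0.65 (SE 0.40, adjusted p = 0.535), so 1 of 6 was positive, as were 47.5% of all genes. In the 8 libraries without H2-Ea-ps Jund was 1.52 (adjusted p = 0.0520) and Fosb -0.25, and without library 2 Fos was -1.54 and Fosb -1.63, none of them past the threshold. Junb was 0.64 in the 8 libraries without H2-Ea-ps, 0.027 with limma voom, 0.0095 without library 1 and 0.055 without library 7. Fosl2 was 0.0080 in those 8 libraries. The 3 comparisons share libraries in pairs and are therefore not separate observations.

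Per kb of exon, Junb and Jund together made up the larger part of the family's transcripts on average at each temperature, though not in libraries 5 and 6, and the make-up at 6 °C differed from the other temperatures in Jun and Jund. CPM was divided by the exon length of each gene and expressed as a share of the 7-gene sum, a quantity that does not depend on library scaling. Jun held 5.92% to 9.23% of the sum in the 6 °C libraries, against 10.95% to 25.6% at 22 °C and 11.7% to 22.5% at 29 °C. Jund held 36.1% to 51.7% at 6 °C, 16.2% to 31.5% at 22 °C and 25.3% to 31.3% at 29 °C. Both shares were thus without overlap between 6 °C and either other temperature, with no like share over all genes to set beside this. In CPM, Jund at 6 °C (50.6 to 108.5) overlapped both 22 °C (28.5 to 75.9) and 29 °C (67.7 to 200), and its mean was highest at 29 °C. A share also depends on the other members, so the Jund share does not follow the Jund level. The shares are computed from the levels above, and no test was made of them. Junb held 31.9% ± 3.397, 30.2% ± 7.64 and 36.4% ± 2.26 at 6, 22 and 29 °C (SD, n = 4), and Fos 12.5% ± 5.79, 22.8% ± 9.71 and 14.5% ± 2.07, with library 6 the highest at 36.6%. Fosl2 held 4.36% to 5.29% on average, or 5.65% to 6.90% with the length of each gene's coding transcript in place of all exons. With those lengths, Jund held 38.7% and Junb 36.0% on average at 6 °C. Fosb and Fosl1 were each under 0.27% in every library.

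**Figure D3:**
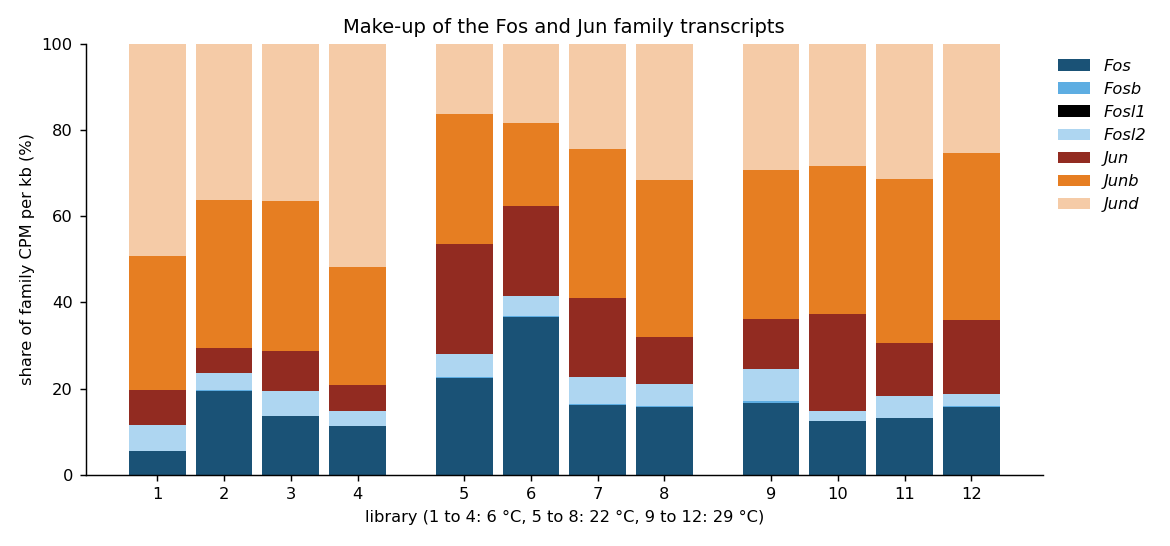
Share of each member in the family's summed CPM per kb (vertical axis, percent, stacked to 100) in libraries 1 to 12, grouped by housing temperature. The Jun segment is 5.92% to 9.23% in libraries 1 to 4 and at least 10.95% in the other 8, and the Jund share, unlike its level, is largest in libraries 1 to 4.

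By mean level per kb the order at 29 °C was Junb (104 ± 44.8 CPM per kb), Jund (79.9 ± 32.9), Jun (50.1 ± 35.5), Fos (40.1 ± 15.6), Fosl2 (10.3 ± 0.888) and Fosb (0.491 ± 0.139), with Fosl1 last. The means of Junb and Jund, of Jund and Jun, and of Jun and Fos lay within 1 SD of each other, whereas Fosl2 and Fosb did not overlap with any other member. That SD is between libraries, while members are measured in the same libraries. Within every 29 °C library Junb stood above Jund and Jund above Jun, whereas Jun and Fos changed order. At 6 °C the order was Jund (48.7 ± 18.6), Junb (36.6 ± 17.1), Fos (16.0 ± 13.2), Jun (7.91 ± 1.97) and Fosl2 (5.11 ± 1.31), with Fosb at 0.156 ± 0.137 CPM per kb. Jun came after Fos there, and their ranges overlapped through library 1 alone, the lowest in Fos. At 22 °C the order was Junb (41.1 ± 17.8), Jund (31.0 ± 14.6), Fos (28.4 ± 7.75), Jun (24.2 ± 6.64), Fosl2 (7.10 ± 2.43) and Fosb (0.271 ± 0.0913). The means of the first 4 did not differ beyond the spread between libraries, though Junb stood above Jund within every 22 °C library. With the coding transcript lengths, Fos (31.7 CPM per kb) came above Jund (31.0) at 22 °C, so that order depends on the length used. The summed family stood at 115 ± 48.5, 132 ± 31.2 and 285 ± 126 CPM per kb at 6, 22 and 29 °C.

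Most pairs of members varied together from library to library. Over 12 libraries and 15 pairs, Pearson's r of log2(CPM + 1) ran from 0.37 to 0.88, and 10 pairs passed at a permutation p adjusted over the pairs by both Pearson's r and Spearman's rho. The share of passing pairs among other genes was not computed, so this count does not set the family apart from them. Fos and Fosl2 passed by r alone (adjusted p = 0.0210, and 0.1000 by rho) and Fosb and Jund by rho alone (0.0444, and 0.0553 by r). The 3 pairs that passed by neither were Jund with Fos, Fosl2 and Jun. After each temperature's mean was taken off, the lowest r values were instead those of Fosl2 with Jun (0.097) and with Fos (0.28). Fosb and Junb had the highest r (0.88, permutation p = 0.00022, adjusted 0.00252; rho 0.81, p = 0.00211, adjusted 0.0107), with 0.94 left without libraries 3 and 4, the farthest from the median of Fosb. Junb and Jund had 0.84 (permutation p = 0.00074, adjusted 0.00252; rho 0.87, p = 0.00047, adjusted 0.00705), with 0.71 without libraries 10 and 12. Fos and Jun, the classical AP-1 pair, had 0.82 (permutation p = 0.00084, adjusted 0.00252; rho 0.81, p = 0.00215, adjusted 0.0107), with 0.78 without libraries 1 and 3. Within the 8 libraries without H2-Ea-ps these 3 values were 0.89, 0.87 and 0.83, and the other 4 libraries are too few for a value. After each temperature's mean was taken off they were 0.83, 0.87 and 0.62. Fosl2 and Jun, the called members, had 0.70 over 12 libraries (permutation p = 0.0128, adjusted 0.0192; rho 0.76, p = 0.00581, adjusted 0.0173), and 0.52 without libraries 1 and 4. Both were called on temperature in these same libraries, so this r and its p restate those calls in part. Within temperatures the r of this pair was the 0.097 given above.

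**Figure D4:**
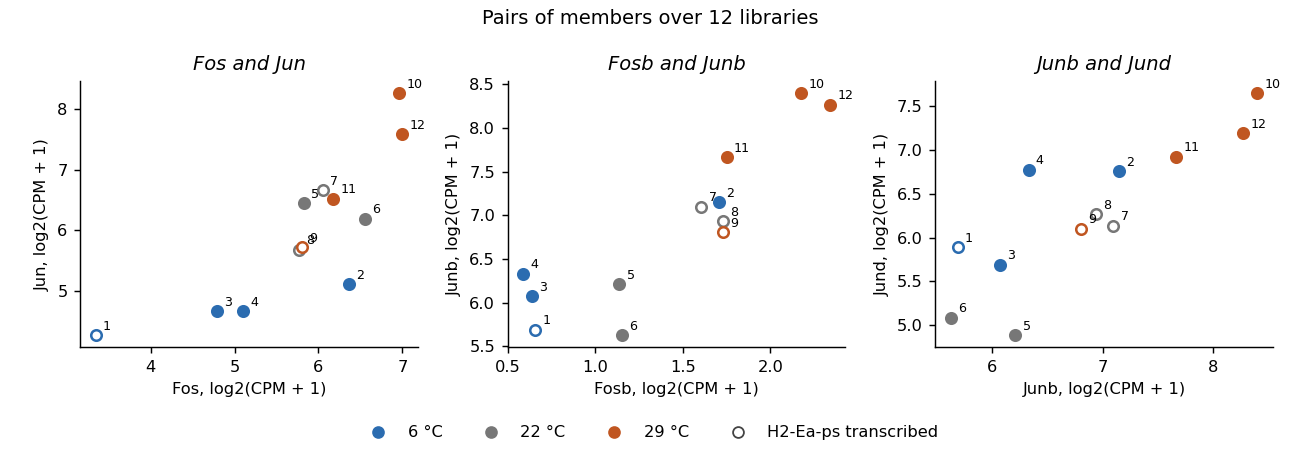
Level of 3 pairs of members as log2(CPM + 1) on both axes, 1 point per library with its number, coloured by temperature and open where H2-Ea-ps is transcribed. Libraries 10 and 12 are the upper right points in each panel, and library 1 is the lowest in Fos and Jun.

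Among 11510 other genes, the ones most like each member over the 12 libraries had r between 0.92 and 0.98, a measure of likeness with no test. Jun was most like Gadd45b (0.98), Epha2 (0.94) and Leap2 (0.93), and Fos was most like Egr1 (0.95), Tecpr2 (0.93) and Dusp6 (0.93). For Fosb they were Tmc8, Trpv2 and Zfp335, for Fosl2 Lhx6, Ucp2 and Akna, for Junb Ldha, Oas1a and Ube2j2, and for Jund Gnb2, Ifitm3 and Epn1.

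Genes that work with AP-1 or are driven by it were read from the same fit. There, at 29 °C against 6 °C, 50.1% of all genes had positive fold changes and 1.13% were called higher. Of 12 tested partners of the wider dimer network (Atf, Maf, Batf and Jdp2 genes), Maff rose at 29 °C against 6 °C and 11 did not pass, with a median log2 fold change of 0.091. Maff, a small Maf protein without an activation domain, stood at 17.3 ± 8.68 against 4.68 ± 1.14 CPM (1.89, edgeR adjusted p = 0.0464, a call lost under 11 of 23 alternatives, among them leaving out library 1, 2, 3, 4, 5, 8, 10, 11 or 12), and library 9 (5.02 CPM) lay within the 6 °C range. The stress factor Atf3, a Jun partner, stood at 4.71, 84.2, 13.3 and 20.3 CPM in libraries 9 to 12 and at 2.15 to 4.52 CPM at 6 °C, with a log2 fold change of 3.18 that did not pass (adjusted p = 0.0623). Of 19 tested kinases and factors upstream of Fos and Jun, 0 passed in any comparison, and Rps6ka1 (1.17, adjusted p = 0.0888) and Srf (0.69, adjusted p = 0.0999) had the lowest p at 29 °C against 6 °C. The transcripts of Mapk8 and its upstream kinases say nothing of their activity, which is set by phosphorylation.

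Among 12 phosphatases and mRNA decay factors that limit AP-1, all fold changes were positive at 29 °C against 6 °C (median 0.61), and Dusp8 alone passed. Dusp8, a phosphatase of stress-activated kinases, stood at 10.4 ± 7.46 against 2.08 ± 1.06 CPM (log2 fold change 2.33, edgeR adjusted p = 0.0458). The call was lost under 12 of 23 alternatives, and with 1 library left out it was kept only without library 7 or 9. Zfp36, which binds AU-rich elements such as those shown above, stood at 239 ± 93.9 against 104 ± 38.7 CPM (1.197, adjusted p = 0.0523). Of 20 textbook AP-1 targets 14 were tested, and 2 of them rose, Plaur among them, while 12 did not pass (median 0.91).

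Plaur, the urokinase receptor, stood at 13.7, 13.2, 9.21 and 12.6 CPM at 29 °C against 2.51 to 5.05 CPM at 6 °C (log2 fold change 1.60, SE 0.29, edgeR adjusted p = 0.0197). All 29 °C libraries were above all 6 °C libraries, and the call was lost without library 3, 4 or 10. The cyclin gene Ccnd1 (0.011, adjusted p = 0.989) and the metalloproteinase gene Mmp9 (0.98, adjusted p = 0.290) did not pass.

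Of 20 other immediate early genes, all had positive fold changes at 29 °C against 6 °C (median 1.07), as had 50.1% of all genes. Gadd45b, Klf10, Ier3, Klf6 and Klf4 rose, where 1.13% of all genes were called higher. The Gadd45b stress gene stood at 32.7 ± 22.7 against 2.84 ± 1.30 CPM, and Klf10, a transforming growth factor beta early gene, at 147 ± 68.8 against 22.9 ± 13.03 CPM (2.67, adjusted p = 0.0241, edgeR). The call of Gadd45b was lost without library 3, 4 or 10, and those of Ier3, Klf4 and Klf6 under 7, 8 and 9 of 23 alternatives. That of Klf10 was lost without library 4, 10, 11 or 12. It was also lost in the 8 libraries without H2-Ea-ps (edgeR adjusted p = 0.0531) and with no low-count filter (0.0505). In none of these 5 lists did any gene pass in the other comparisons, where the medians for early genes were 0.61 at 29 °C against 22 °C and -0.66 at 6 °C against 22 °C. Neutrophil markers (10 of 10 found, none at 0 in all libraries) summed to 30.9 to 832 CPM at 6 °C, 390 to 1561 CPM at 22 °C and 580 to 2577 CPM at 29 °C, with library 9 the highest. Kupffer cell and macrophage markers (12 of 12 found, none at 0 in all libraries) summed to 526 to 980, 426 to 1153 and 630 to 1404 CPM in the same order. Library 10 was the highest of the 12 in macrophage markers, as in Jun and Junb, and library 9 the lowest of the 29 °C libraries. The highest in macrophage markers were libraries 10, 11, 6 and 12 (1404, 1252, 1153 and 1095 CPM). Libraries 10 to 12 were also the highest in Junb, and library 6 was the lowest of the 12 (48.4 CPM). All 10 neutrophil and all 12 macrophage markers had positive fold changes at 29 °C against 6 °C (medians 1.34 and 0.62). At 29 °C against 22 °C, 9 and 11 were positive (medians 0.38 and 0.58), with 0 called in either comparison. Erythroid markers (9 of 10 found, none at 0 in all libraries) summed to 117 to 222, 70.9 to 129 and 118 to 479 CPM, with libraries 10 (479 CPM) and 12 (301 CPM) the highest, as for Fos, Jun and Junb. Of 8 erythroid markers tested, 7 had positive fold changes at 29 °C against 6 °C (median 1.14) and 8 at 29 °C against 22 °C (median 1.41), with 0 called. The part of these 3 cell types in the results was not tested.

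**Figure D5:**
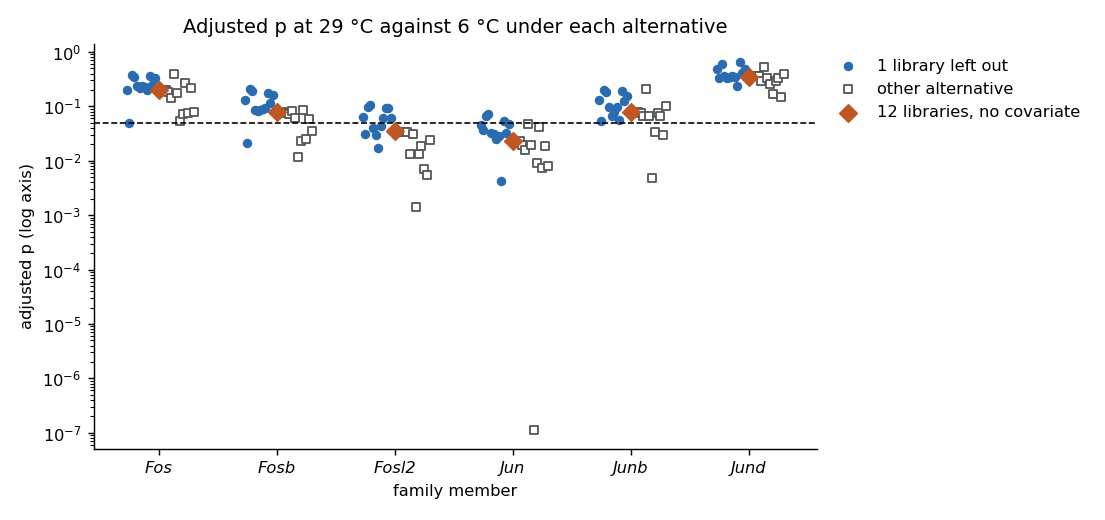
Adjusted p (vertical log axis, dashed line at 0.05) of 6 members for 29 °C against 6 °C in the fit of 12 libraries (diamonds), with 1 library left out (circles) and under the other alternatives (squares). Jun lies between 1.1e-07 and 0.0730, Fosl2 between 0.00139 and 0.105, and Jund stays above the line throughout.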

How the data were processed

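The authors deposited raw counts per gene for 12 mouse liver libraries of total RNA depleted of ribosomal RNA, per the labels' protocols. Per the submitters' processing notes, the build was GRCm38 and the tools included STAR 2.6.1a, DESeq2 1.44.0 and bcl2fastq, whose roles are not stated. Neither the program that counted reads nor its strand setting is stated in the labels. Each column was assigned through the library name that its sample's description gives, and members were found by gene symbol. Positions and exon lengths came from GENCODE M21 (GRCm38), which holds 54587 of the 55421 identifiers with the same version.

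All 15006 genes that passed filterByExpr were fitted together in edgeR 4.0.16 (R 4.3.3; TMM scaling, robust quasi-likelihood, 3 temperature means, 9 residual degrees of freedom, two-sided). Benjamini-Hochberg adjustment ran over all 15006 genes with a threshold of 0.05, and only the rows of interest are printed. Standard errors were derived from the fold change and its F statistic. Tested on simulated data for 29 °C and 6 °C (14689 genes), it called 37.5% of true 2-fold changes, 79.8% of true 4-fold changes and 7 genes falsely. Alternatives were other scalings (DESeq2 size factors, upper quartile, sizes leaving out mitochondrial genes and the top 10), no filter or a stricter one, DESeq2 1.42.0, limma 3.58.1 voom with quality weights, the 8 libraries compared, a term for H2-Ea-ps transcription, the 8 libraries without it, and each library left out. The term combined with leaving out library 11 was added after seeing the data. The pairs of members were tested with 100000 permutations of log2(CPM + 1), a pseudocount of 1 (scipy 1.17.1).

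The members, the gene lists and these alternatives were chosen with earlier results of the same data known. The named genes are the 7 members, at most 5 called genes per list with the lowest p (2 with the lowest p where none was called), and the 3 genes most like each tested member. Atf3, Zfp36, Ccnd1 and Mmp9 were named outside this rule, as uncalled genes of lists that held a called one. Markers are given as summed levels. Promoter windows came from RefSeq (GRCm38.p6) and 3' UTRs from GENCODE M21 transcripts. Protein sequences were not used here. One called gene of the AP-1 target list is not reported here.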

Additional observations from a re-analysis of the deposited data

Results flagged for a closer look

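Fosb at 6 °C was flagged because library 2 lay far from the other 3 libraries of its group, at 2.26 CPM against at most 0.576 CPM, a gap of 0.958 of the group's range that exceeds Dixon's 95% critical value for 4 samples. It rests on 17 counts against 6 to 8. Library 2 was also the highest 6 °C library for Fos (81.5 CPM), Fosl2 (68.1 CPM), Jun (33.6 CPM) and Junb (140.8 CPM), and it has the lowest total count of the 12. Of 19 groups tested this one was flagged, and chance flags about 1 in 20.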

How the results depend on the processing

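Over 23 alternatives, the number of members called at 29 °C against 6 °C (2 of 6) was 0 to 4 with 1 library left out, 4 with DESeq2 and 4 with limma voom, and otherwise 2 or 3. At 29 °C against 22 °C the count of 0 became 2 with DESeq2 and 3 in the 8 libraries without H2-Ea-ps. At 6 °C against 22 °C the count of 0 became 1 with DESeq2. Directions reversed for 2 members at 6 °C against 22 °C: Junb (0.027 with limma voom, 0.64 in the 8 libraries without H2-Ea-ps, and from -0.53 to 0.055 with 1 library left out, positive without library 1 at 0.0095 and without library 7) and Fosl2 (0.0080 in those 8). All other fold changes of members kept their sign, and the cause was not tested. Library sizes without mitochondrial and abundant genes moved the median of all genes to 0.11 at 29 °C against 6 °C and to -0.11 at 6 °C against 22 °C, with members' medians of 1.52 and -0.77. Over all genes, 379 calls at 29 °C against 6 °C became 1884 with the split term, 1504 in the 8 libraries, 1205 with DESeq2, 1110 with limma voom and 41 to 439 with 1 library left out. The 5 calls at 6 °C against 22 °C became 55 with the split term, 1015 in the 8 libraries and 178 with DESeq2, and the 0 calls at 29 °C against 22 °C became 516 and 2594 with the first 2 of these. No paired analysis was possible because the labels number the libraries 1 to 12 with no number shared between temperatures. With 4 libraries per group and the simulated recovery of 2-fold changes given above, members that missed the threshold are not shown to be unchanged. Depth limits Fosl1 and Fosb alone.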
